A study of Mus musculus with 32 samples.

Results

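The genes described here encode the core machinery that starts transcription by RNA polymerase II (Pol II): the Mediator complex, the Pol II subunits, the TATA-binding protein TBP with its associated factors (TAFs), and the other general transcription factors. They were chosen by symbol in the count table: protein-coding genes beginning with Med, Taf or Polr2 followed by a digit or, for Polr2, a letter, or with Gtf2, together with Tbp, Cdk8, Cdk19 and Ccnc, with at least 10 counts in 4 or more libraries. Of 54146 gene identifiers, 83 met this rule, and all 83 had at least 10 counts in all 32 libraries. Taf9, Taf7l and Gtf2a1l were the 3 other genes with such a symbol, and they reached 10 counts in 1, 2 and 2 libraries. The count for Taf9 is uncertain because Ak6 shares 73.8% of its exon bases on the same strand. By complex the 83 genes comprised 33 of Mediator (7 head, 9 middle, 10 tail and backbone, 7 kinase module), 12 Pol II subunits, 15 of TFIID, 2 of the SAGA coactivator (Taf5l, Taf6l), and 4 of the Pol I selectivity factor SL1 (Taf1a to Taf1d). The remaining 17 were 2 of TFIIA, TFIIB (Gtf2b), 2 of TFIIE, 2 of TFIIF, 5 of the TFIIH core, 3 of the TFII-I family, Polr2m (Gdown1, a Pol II-associated protein) and Taf15 (an RNA-binding protein of the FET family).

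RNA came from male C57BL/6J mice aged 12 weeks, as 1 hemisphere of hippocampus or striatum per library. Each mouse received an intraperitoneal injection of CI-994 (labelled HDACi, an inhibitor of the class I histone deacetylases, 30 mg/kg) or of its solvent alone (Veh, a mixture of dimethyl sulfoxide, Kolliphor and saline). At 1 hour after injection it underwent contextual fear conditioning (CFC: 3 min in a chamber, then 2 foot shocks of 1 s at 0.2 mA) or spent the same time in that chamber with no shock (Context), and tissue was taken 1 hour after that. Each region therefore had 4 groups of 4 mice: Veh Context, Veh CFC, HDACi Context and HDACi CFC. All mice received the injection, the solvent and time in the chamber, so no group was untreated. Mice of a cage shared their behaviour, so cage and behaviour cannot be told apart, and the labels do not say whether equal replicate numbers in the 2 regions mark 1 mouse.

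At a Pol II promoter, TFIID binds the core promoter through TBP and several TAFs, TFIIA and TFIIB stabilise that complex, TFIIF brings in Pol II, and TFIIE and TFIIH complete the assembly and open the DNA. Mediator connects DNA-bound activators with this assembly: its head and middle modules contact Pol II, its tail contacts activators, Med14 forms the backbone, and a separable kinase module (Cdk8 or Cdk19 with cyclin C, Med12 or Med12l, Med13 or Med13l) regulates the rest. Histone deacetylases remove acetyl groups from histones, and some TFIID and SAGA subunits belong to complexes that read or write that mark.

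Libraries held 26026024 to 36670767 counts. Levels are given as CPM, each gene's counts relative to its library's total, scaled by TMM, a factor per library that corrects for a few genes taking a large share of the counts. The summed CPM of 10 medium spiny neuron markers was 165 to 211 in hippocampus and 5684 to 10230 in striatum, and that of 10 hippocampal excitatory neuron markers was 1920 to 2860 and 385 to 749. Some libraries stood apart from their group. Choroid plexus markers (10 genes) summed to 6249 and 5993 CPM in hippocampus HDACi CFC replicates 2 and 4, against 35.1 to 446 in the other 14 hippocampal libraries, with 1 of the 10 at 0 in HDACi CFC replicate 3. Striatum HDACi CFC replicate 2 and Veh CFC replicate 3 held the lowest sums of the medium spiny neuron markers, 5684 and 6142 CPM. All 5 oligodendrocyte precursor markers were higher with HDACi in the 2 hippocampal comparisons and in striatum CFC, with summed CPM of 262 to 327 against 179 to 205 in hippocampus and 275 to 349 against 182 to 224 in striatum (4 of 5 higher in striatum Context), and their part in the results was not tested. In the order hippocampus CFC, hippocampus Context, striatum CFC and striatum Context, 1, 1, 3 and 4 of 6 astrocyte markers were called higher with HDACi, 1, 2, 2 and 3 of 5 thalamic neuron markers, 1, 1, 2 and 3 of 5 endothelial markers and 0, 0, 2 and 1 of 6 microglial markers. The thalamic sums were 121 to 132 CPM against 92.8 to 111 in hippocampus and 120 to 177 against 96.3 to 111 in striatum, and the astrocyte sums in striatum were 1045 to 1247 against 833 to 966, each without overlap. The part of these markers in the results was not tested either. Replicates 1 and 2 also differed from replicates 3 and 4 for some genes, as the Taf1c values given later show, so counts within each set stand beside the drug results. In bulk tissue, fewer cells of a type and less RNA per cell cannot be told apart.

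The first question was what HDACi did to these genes after each behaviour. In every comparison of HDACi with vehicle the genes called lower far outnumbered those called higher, where called means an adjusted p under 0.05 in edgeR's quasi-likelihood test with Benjamini-Hochberg adjustment over all genes. In hippocampus after CFC, 31 of the 83 genes were lower and 0 higher, against 13.4% and 7.42% of all 18261 genes tested. After Context in hippocampus, 28 were lower and 0 higher (13.2% and 6.55% of all genes). In striatum 40 were lower and 3 higher after CFC (14.6% and 9.57% of 18256 genes), and 37 were lower and 3 higher after Context (14.5% and 10.3%). Without striatum Veh CFC replicate 4 the count of higher genes in striatum CFC was 1. The median log2 fold change of the 83 genes was -0.16 in both hippocampal comparisons and -0.26 and -0.25 in striatum CFC and Context, while that of all genes lay between 0.01 and 0.03. The 4 comparisons used separate mice within a region. Across them, 23 genes (27.7%) were lower in all 4, against 8.71% of the 17492 genes tested in both regions, 0 were higher in all 4 (2.34% of all genes), and 32 (38.6%) were called in none (61.3%). A further 24 genes were lower in 1 to 3 comparisons, so that 47 (56.6%) were lower in at least 1, against 21.3% of all genes. Higher in at least 1 were 4 (4.82%), against 17.6% of all genes. No gene was called in opposite directions in different comparisons, against 0.137% of all genes. The shares of all genes, here and below, were not matched for expression level to the 83, which all had at least 10 counts in every library.

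These counts moved with the libraries used. Without hippocampus HDACi CFC replicates 2 and 4, the count of lower genes in that comparison was 19, all of them among the 31, with 8.73% of all genes then called lower and a median of -0.18, and without striatum HDACi CFC replicate 2 and Veh CFC replicate 3 the striatum CFC count was 35. The number of genes lower in all 4 comparisons, 23, was 16 without these 4 libraries, 7 within replicates 1 and 2, 10 within replicates 3 and 4, and 35 under scaling to library size. Within replicates 1 and 2 alone the lower counts were 16, 16, 13 and 16 for hippocampus CFC, hippocampus Context, striatum CFC and striatum Context, and within replicates 3 and 4 they were 14, 15, 26 and 19, with 6.05% to 8.81% of all genes then called lower. With offsets for GC content and exon length, 35 genes were lower and 5 higher in hippocampus CFC, and 34 lower and 6 higher in hippocampus Context, with Gtf2e1 and Gtf2h5 among the higher ones in both. The shares of all genes called under these offsets are not given here. Scaling to library size alone moved the median of all genes in striatum Context from 0.03 to -0.09 and that of the 83 genes from -0.25 to -0.36.

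**Figure D1:**
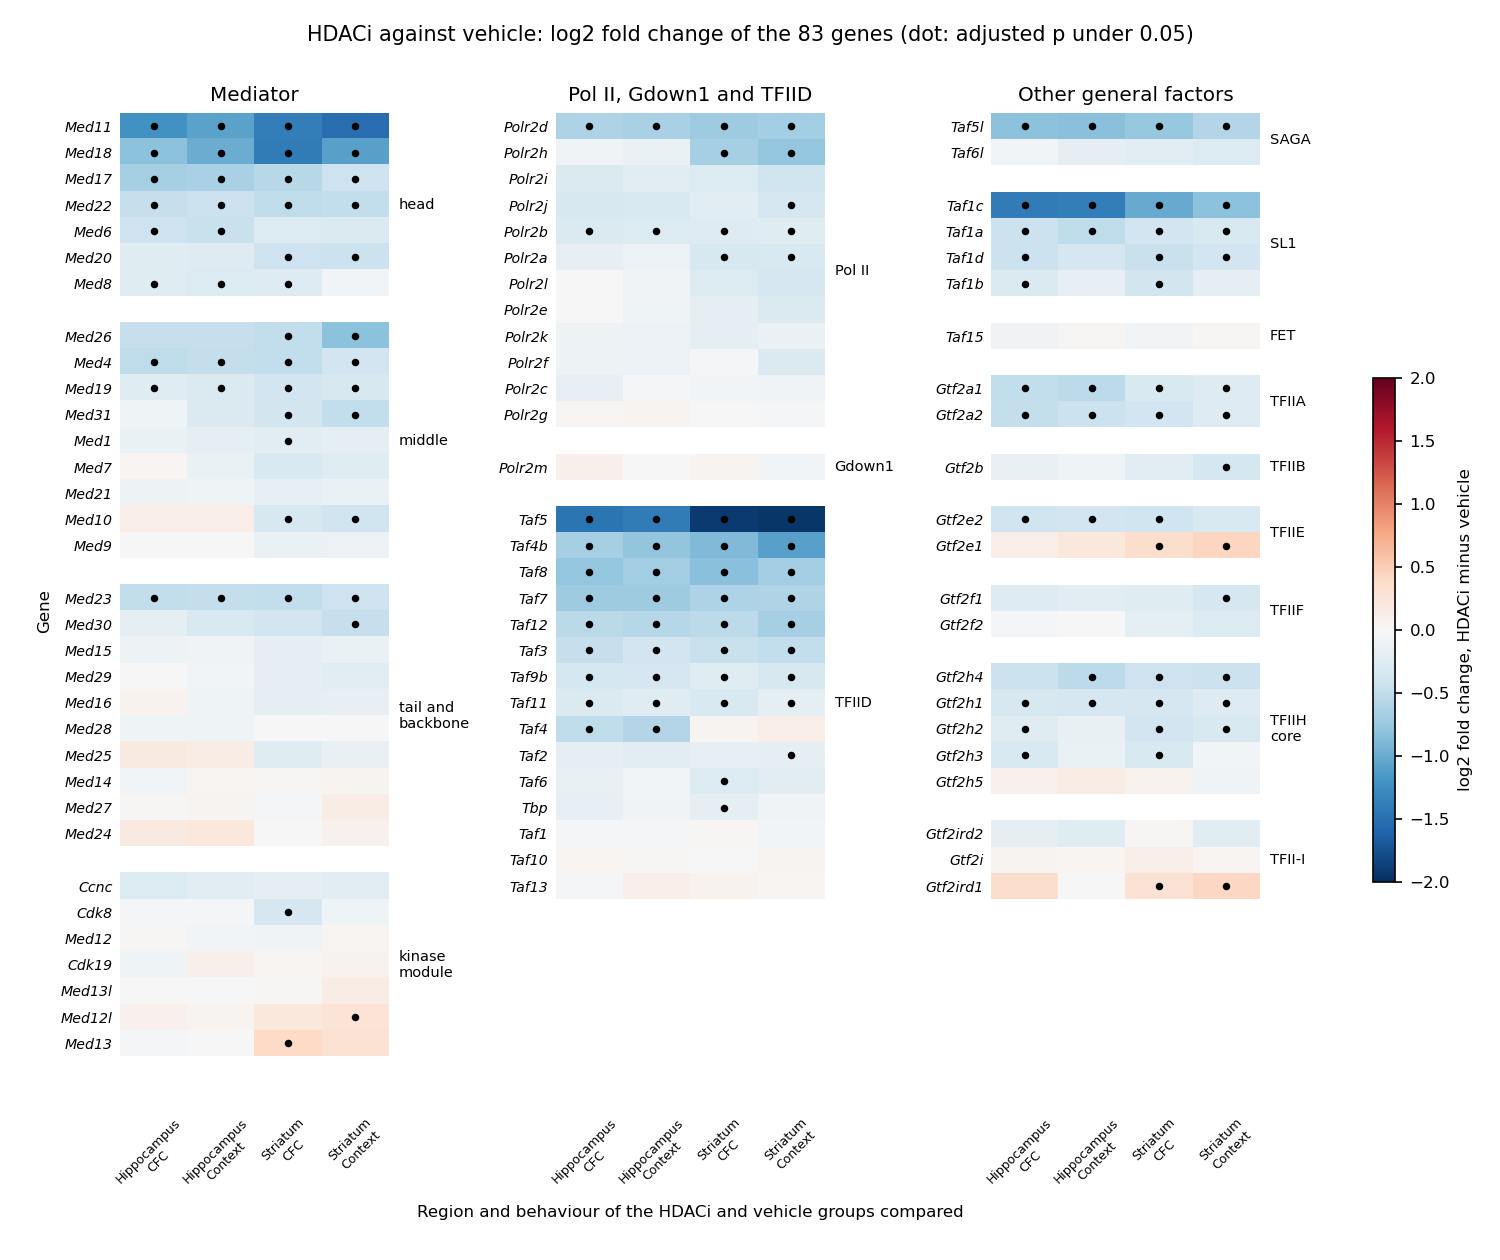
Log2 fold change of each of the 83 genes with HDACi against vehicle (colour, blue lower and red higher) in the 4 comparisons (columns), with rows grouped by complex and a dot where the adjusted p was under 0.05. Blue rows with 4 dots include Med11 and Med17 of the Mediator head and Taf5 and Taf12 of TFIID, while the rows of the kinase module are mostly pale.

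Promoter windows from RefSeq (GRCm38.p6, 250 bases before to 50 after a start site) were matched by symbol to 71 of the 83 genes. Because many of these genes moved together, the windows were searched on both strands for 7 short motifs: TATAAA (the TATA box), CCAAT (bound by NF-Y), GGGCGG (bound by Sp1), CCGGAAG (ETS factors), TGACG (the core of the cyclic AMP response element), GCGCATG (NRF1) and AAGATGG (YY1). None of these motifs contains another. CCGGAAG was present in 12 of the 19 matched genes that were lower in all 4 comparisons (63.2%), in 7 of the 28 called in none (25%), in 18.7% of 10511 protein-coding genes with a mean of at least 1 CPM, and in 9.93% of all 27025 genes in the promoter table. AAGATGG was present in 5 of the 19 (26.3%), 1 of the 28 (3.57%) and 8.18% of the expressed genes. GCGCATG was in 21.1%, 10.7% and 7.71% of the same sets, TATAAA in 15.8%, 17.9% and 8.49%, and CCAAT in 31.6%, 46.4% and 42.8%. GGGCGG was in 68.4%, 67.9% and 68.7%, and TGACG in 42.1%, 53.6% and 34.8%. Over all 27025 genes AAGATGG was in 7.28%, GCGCATG in 4.41%, TATAAA in 15.7%, CCAAT in 41.1%, GGGCGG in 38.2% and TGACG in 23%. The 25 genes with CCGGAAG had median log2 fold changes of -0.29 in both hippocampal comparisons and -0.32 and -0.30 in striatum CFC and Context, and the 46 without it had -0.08, -0.08, -0.22 and -0.22. These matches are descriptions of letters, not of bound sites, and a gene with several windows was counted once.

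Printed here are the 250 bases before the start of 6 genes: Taf5 and Med11, lowered by more than 1 on the log2 scale in all 4 comparisons and neither with CCGGAAG, then Taf5l, Med17 and Taf12, lower in all 4 comparisons and each with it, and Gtf2e1, which was higher in striatum. Capitals mark matches to any of the 7 motifs on either strand, and each sequence runs 5′ to 3′ towards the gene. The windows are Taf5 at chr19:47067498-47067747 on the plus strand, Med11 at chr11:70451668-70451917 on the plus strand, Taf5l at chr8:124021398-124021647 on the minus strand, Med17 at chr9:15279907-15280156 on the minus strand, Taf12 at chr4:132274125-132274374 on the plus strand and Gtf2e1 at chr16:37539790-37540039 on the minus strand (GRCm38.p6).
Taf5: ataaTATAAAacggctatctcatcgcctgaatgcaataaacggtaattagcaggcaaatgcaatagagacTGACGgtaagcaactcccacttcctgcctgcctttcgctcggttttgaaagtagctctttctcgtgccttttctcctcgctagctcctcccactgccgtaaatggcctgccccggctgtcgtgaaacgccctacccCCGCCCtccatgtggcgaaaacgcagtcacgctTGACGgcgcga
Med11: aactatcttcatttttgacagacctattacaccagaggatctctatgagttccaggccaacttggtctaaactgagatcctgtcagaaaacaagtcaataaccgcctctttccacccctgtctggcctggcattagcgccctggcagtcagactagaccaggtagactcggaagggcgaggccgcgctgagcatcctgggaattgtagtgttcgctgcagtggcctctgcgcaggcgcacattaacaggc
Taf5l: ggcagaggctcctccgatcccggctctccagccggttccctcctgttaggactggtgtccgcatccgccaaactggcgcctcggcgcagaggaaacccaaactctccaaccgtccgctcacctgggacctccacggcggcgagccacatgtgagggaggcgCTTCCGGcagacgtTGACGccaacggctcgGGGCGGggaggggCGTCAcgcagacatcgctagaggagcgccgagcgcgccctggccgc
Med17: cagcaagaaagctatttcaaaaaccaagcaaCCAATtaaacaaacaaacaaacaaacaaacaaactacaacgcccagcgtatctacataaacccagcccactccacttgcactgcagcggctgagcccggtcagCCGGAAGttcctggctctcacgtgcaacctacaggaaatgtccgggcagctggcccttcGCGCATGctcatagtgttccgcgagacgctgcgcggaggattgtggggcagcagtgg
Taf12: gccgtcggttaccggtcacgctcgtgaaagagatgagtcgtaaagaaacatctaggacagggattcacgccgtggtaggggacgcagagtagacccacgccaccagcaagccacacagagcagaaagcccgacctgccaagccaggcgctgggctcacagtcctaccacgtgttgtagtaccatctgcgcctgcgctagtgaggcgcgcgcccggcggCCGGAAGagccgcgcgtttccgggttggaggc
Gtf2e1: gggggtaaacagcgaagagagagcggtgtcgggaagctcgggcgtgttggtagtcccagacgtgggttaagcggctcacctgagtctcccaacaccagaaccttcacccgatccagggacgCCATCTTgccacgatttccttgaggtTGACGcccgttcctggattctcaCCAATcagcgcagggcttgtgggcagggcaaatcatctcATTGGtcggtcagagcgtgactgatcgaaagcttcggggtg

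CCGGAAG appears once in Med17 and Taf12 as written and in Taf5l as its reverse complement CTTCCGG, while Med11 holds no match in these 250 bases.

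TFIID recognises the core promoter. Of its 15 genes 9, 9, 10 and 9 were lower with HDACi in hippocampus CFC, hippocampus Context, striatum CFC and striatum Context (13.4%, 13.2%, 14.6% and 14.5% of all genes). In each 0 were higher (7.42%, 6.55%, 9.57% and 10.3% of all genes). Without HDACi replicates 2 and 4, 7 were lower in hippocampus CFC. Taf5, the WD40-repeat subunit of the TFIID core, was the most strongly lowered of the 83 genes in all 4 comparisons. In hippocampus after CFC its CPM was 8.38, 6.6, 8.41 and 7.53 with vehicle and 2.36, 2.62, 3.73 and 2.61 with HDACi, and after Context 6.43, 6.79, 7.88 and 7.5 and 2.27, 2.76, 3.31 and 2.52. In striatum the values were 6.23, 5.76, 7.2 and 6.21 against 1.5, 1.73, 1.9 and 1.65 after CFC, and 6.09, 5.42, 6.6 and 7.02 against 1.51, 1.26, 1.95 and 1.85 after Context. Every HDACi library was below every vehicle library of its comparison, a separation seen downwards in 13.6%, 14.2%, 13.6% and 14.5% of all genes in the 4 comparisons. The log2 fold changes were -1.46 (SE 0.15), -1.40 (0.15), -1.92 (0.14) and -1.95 (0.14), with edgeR adjusted p of 5.07e-06, 9.06e-06, 2.20e-07 and 1.73e-07. The decrease was numerically larger in striatum, but the difference between regions was not called (adjusted p = 0.572 after CFC and 0.406 after Context).

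Taf12, a histone-fold subunit shared with SAGA, measured 14.8, 14.5, 14.4 and 14.8 CPM with vehicle and 9.46, 9.24, 9.26 and 9.31 with HDACi in striatum Context, a log2 fold change of -0.67 (SE 0.08, edgeR adjusted p = 9.33e-06), and -0.54, -0.57 and -0.52 in the other 3 comparisons. Its groups did not overlap in any of the 4. Among further TAFs, chosen after their values were seen, Taf8 fell by 0.77, 0.70, 0.84 and 0.69 on the log2 scale, Taf7 by 0.71, 0.71, 0.62 and 0.60, and Taf3 by 0.46, 0.38, 0.45 and 0.49. Taf8 and Taf3 contain histone-fold domains, Taf3 also binds methylated histone H3, and Taf7 binds Taf1. Taf11 and Taf9b were also called lower in all 4 comparisons, by smaller amounts (0.19 to 0.30 and 0.24 to 0.35 log2). The Taf11 call in hippocampus Context (adjusted p = 0.0481) was lost without any 1 of the 8 libraries compared, with adjusted p of 0.0576 to 0.127. It was also lost in hippocampus CFC without Veh or HDACi CFC replicate 2 (0.0793 and 0.0613) or without HDACi replicates 2 and 4 together (0.112), and in striatum Context without HDACi replicate 2 or 4 (0.0602 and 0.0705). The Taf9b calls were lost without any of 3 libraries in hippocampus CFC (Veh 3, HDACi 1 and 4), 5 in hippocampus Context (Veh 3 and 4, HDACi 1, 2 and 4) and 5 in striatum CFC (Veh 3 and 4, HDACi 1, 2 and 4), with adjusted p of 0.0518 to 0.0958. Without the libraries that stood apart the adjusted p of Taf9b was 0.0925 in hippocampus CFC and 0.112 in striatum CFC.

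The 2 subunits at the centre of TFIID by name, TBP and Taf1, were called in 1 and 0 of the 4 comparisons. Taf1, the largest TAF, was called in no comparison, with log2 fold changes from -0.05 to 0.03 and edgeR adjusted p of at least 0.608. In striatum CFC its CPM was 96.6, 98.5, 108 and 103 with vehicle and 103, 108, 105 and 104 with HDACi, and the groups overlapped. Tbp, which bends the promoter DNA, was called lower in striatum CFC, at 38.5, 35.9, 38 and 38.1 against 35.4, 30.3, 35.4 and 33.3 CPM, a log2 fold change of -0.18 (SE 0.06, adjusted p = 0.0436). The groups did not overlap, but the call was lost without Veh replicate 1, 3 or 4 or HDACi replicate 2 or 4 (adjusted p 0.0661 to 0.0936), or without both libraries that stood apart (0.124), and with no filter on low counts (0.121). Its other log2 fold changes were -0.16, -0.08 and -0.08, with adjusted p of 0.22, 0.621 and 0.413. Taf10 and Taf13, 2 histone-fold subunits chosen after their values were seen, were between -0.03 and 0.14 in all 4 comparisons and were not called. Taf6 was called lower in striatum CFC (-0.27, adjusted p = 0.0333), a call lost without Veh replicate 1 or 4 or HDACi replicate 3 or 4 (0.0538 to 0.102), and in striatum Context it was called without Veh replicate 3 (0.0426).

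Taf4 and its paralogue Taf4b, which build the scaffold of TFIID, differed from each other by region. Taf4 in hippocampus measured 19.6, 16.4, 18.3 and 14.8 CPM with vehicle and 12.2, 11.9, 12.2 and 12.8 with HDACi after CFC, and 19.3, 17.1, 18.7 and 17.2 and 12, 12, 11.9 and 12.2 after Context. In striatum it measured 29.2, 22.4, 24 and 21.8 and 28.9, 20.9, 29.9 and 22.9 after CFC, and 26.5, 26.3, 24.7 and 22.4 and 25.1, 31.9, 26.6 and 27.9 after Context. The hippocampal groups did not overlap and the striatal ones did. The Taf4 log2 fold changes were -0.51 (SE 0.08, adjusted p = 3.23e-04) and -0.59 (0.08, 8.22e-05) in hippocampus, against 0.06 (0.12, 0.776) and 0.14 (0.12, 0.44) in striatum, by edgeR. Taf4b was lower in all 4 comparisons, by 0.66, 0.79, 0.89 and 1.09 log2 (adjusted p 0.00174, 4.25e-04, 1.58e-04 and 2.16e-05), from 5.53, 6.42, 6.31 and 6.16 to 2.49, 2.86, 3.28 and 3 CPM in striatum Context. Per kb of exon, the ratio of Taf4 to Taf4b in striatum was 4.55 with vehicle and 10.7 with HDACi after Context, and 4.78 and 9.08 after CFC, with no overlap between the 4 values of either group. In hippocampus the ratio was 2.98 and 3.46 after Context and 2.79 and 3.11 after CFC, with overlapping groups. Each striatal difference gave a two-sided exact permutation p of 0.0286, the smallest that 4 against 4 allows, and 0.0952 after adjustment over the 30 paralogue ratios tested.

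Some genes for TAF-related proteins outside TFIID were lowered as well. Taf5l, the SAGA counterpart of Taf5, measured 17.2, 17.9, 14.1 and 16.8 CPM with vehicle and 9.07, 10.0, 8.9 and 9.78 with HDACi in hippocampus CFC, and 17.1, 17.2, 16.4 and 17.8 against 11, 9.9, 8.94 and 11.1 in striatum CFC. Its groups were separate in all 4 comparisons, with log2 fold changes of -0.82, -0.84, -0.76 and -0.58 (SE 0.08 in each) and edgeR adjusted p of 4.01e-06, 3.66e-06, 3.32e-06 and 3.86e-05. Taf6l, the SAGA counterpart of Taf6, was called in none (-0.06, -0.19, -0.23 and -0.28), though in striatum Context it was without Veh replicate 3 (0.0287) or HDACi replicate 1 (0.036). The ratio of Taf5 to Taf5l per kb was 0.416 with vehicle and 0.159 with HDACi in striatum Context, and 0.405 and 0.182 in striatum CFC, with no overlap (exact permutation p = 0.0286, adjusted 0.0952 for each). In hippocampus it was 0.512 and 0.323 after CFC and 0.491 and 0.330 after Context, with overlapping groups (exact permutation p = 0.0571, adjusted 0.132 for each). All 4 SL1 genes, whose products direct Pol I to ribosomal DNA, were lower in both CFC comparisons, and 2 and 3 of them in hippocampus and striatum Context, with 1 lower in hippocampus CFC without HDACi replicates 2 and 4. Of all genes 13.4% and 14.6% were lower in hippocampus and striatum CFC, and 13.2% and 14.5% in hippocampus and striatum Context. Taf1c, chosen after its values were seen, measured 8.38, 9.62, 4.47 and 5.94 CPM with vehicle and 2.95, 3.23, 1.8 and 2.85 with HDACi in hippocampus CFC, and 11.7, 9.71, 6 and 6.22 against 4.45, 6.83, 3.97 and 4.08 in striatum Context. Replicates 1 and 2 were above replicates 3 and 4 in each vehicle group of Taf1c, and the striatum Context groups overlapped while the other 3 pairs did not. Its log2 fold changes were -1.40 (SE 0.31), -1.38 (0.31), -1.01 (0.25) and -0.82 (0.25), the widest errors of any gene lowered in all 4 comparisons. Taf15 was not called (from -0.07 to 0.04).

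Mediator is described here by module, and no difference between modules was tested. In the head, which contacts Pol II, 6, 6, 6 and 5 of 7 genes were lower with HDACi in hippocampus CFC, hippocampus Context, striatum CFC and striatum Context, with medians of -0.46 and -0.45 in hippocampus, against 13.4%, 13.2%, 14.6% and 14.5% of all genes called lower. Of the 9 middle genes 2, 2, 6 and 5 were lower, and of the 10 tail and backbone genes 1, 1, 1 and 2, a share near that of all genes. No gene of these 3 modules was higher in any comparison, against 7.42%, 6.55%, 9.57% and 10.3% of all genes in the same order. Without hippocampus HDACi CFC replicates 2 and 4, the hippocampus CFC counts were 4 in the head, 1 in the middle and 1 in the tail, and without striatum HDACi CFC replicate 2 and Veh CFC replicate 3 the striatum CFC counts were 5, 4 and 1.

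Med11, a small head subunit that pairs with Med22, measured 3.62, 4.02, 3.36 and 4.29 CPM with vehicle and 1.59, 1.97, 1.64 and 1.46 with HDACi in hippocampus CFC, and 4.44, 3.77, 3.74 and 3.7 against 2.23, 1.98, 1.41 and 1.88 in hippocampus Context. In striatum it measured 4.25, 3.95, 4.18 and 3.17 against 1.43, 1.69, 1.52 and 1.35 after CFC, and 4.28, 4.45, 3.44 and 3.61 against 1.47, 1.53, 1.56 and 1.01 after Context. No HDACi library reached the lowest vehicle library in any of the 4 comparisons. The log2 fold changes were -1.21 (SE 0.14), -1.07 (0.14), -1.39 (0.16) and -1.52 (0.16), with edgeR adjusted p of 1.67e-05, 5.37e-05, 8.53e-06 and 3.66e-06. Med17, the structural core of the head, measured 26.1, 23.8, 24.9 and 26 CPM with vehicle and 16.3, 15.7, 16.1 and 16.1 with HDACi in hippocampus CFC, and fell by 0.67, 0.65, 0.55 and 0.42 log2 in the 4 comparisons (adjusted p 1.19e-05, 1.48e-05, 1.35e-04 and 0.00137). Its groups did not overlap in any of them. Med18, part of the head's movable jaw and the least expressed gene of the 83 per kb, measured 2.14, 2.06, 2.02 and 1.88 CPM with vehicle and 0.865, 0.529, 0.837 and 0.89 with HDACi in striatum CFC (log2 fold change -1.39, SE 0.18, adjusted p = 3.50e-05). Its other log2 fold changes were -0.82, -0.99 and -1.09, and without hippocampus HDACi CFC replicates 2 and 4 the hippocampus CFC value was -0.76 (adjusted p = 0.0548). Med22, Med11's partner, chosen after its values were seen, was lower by 0.42 to 0.50 log2 in all 4 comparisons.

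**Figure D2:**
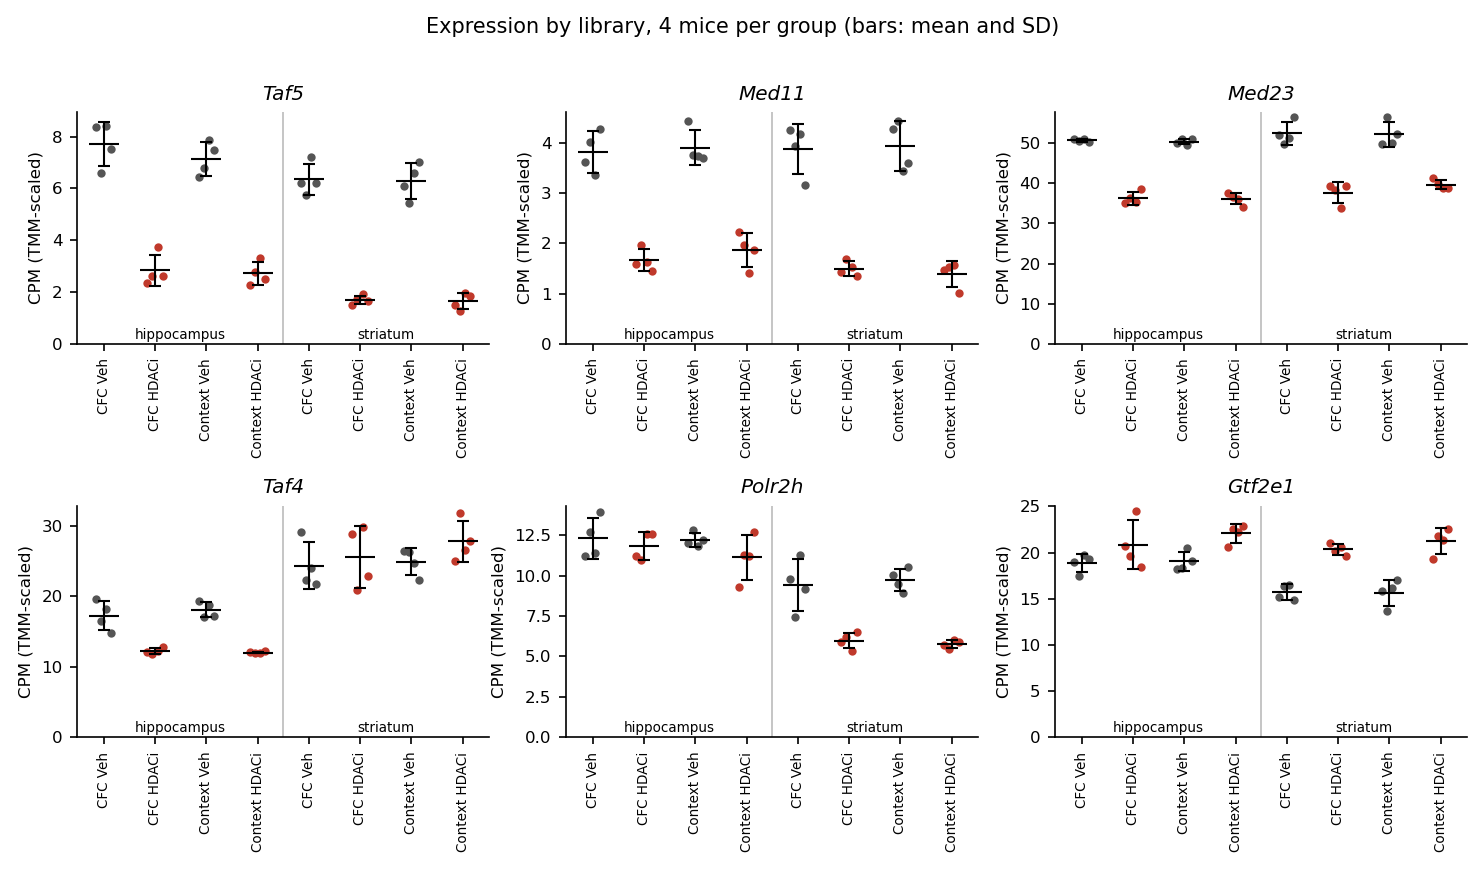
TMM-scaled CPM of 6 genes in each library (points, grey vehicle and red HDACi; horizontal bars with whiskers give the mean and SD of 4 mice), with hippocampus left and striatum right of the vertical line. Taf5, Med11 and Med23 separate by drug in all 4 pairs of groups, Taf4 in hippocampus only, Polr2h in striatum only, and Gtf2e1 is higher with HDACi in both striatal pairs.

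In the middle module, Med4, which joins the module's parts, was lower in all 4 comparisons (-0.52, -0.48, -0.49 and -0.39, edgeR adjusted p 5.83e-05, 1.12e-04, 9.61e-05 and 6.70e-04). In striatum CFC its CPM was 23.3, 23.2, 25 and 25.2 with vehicle and 17.8, 15.7, 19.3 and 16.8 with HDACi, and its groups did not overlap in any comparison. Med1, the subunit that binds nuclear receptors, measured 62, 62.1, 69.3 and 63.7 CPM with vehicle and 61.3, 52, 58.4 and 51.9 with HDACi in striatum CFC, where it was called lower (-0.22, SE 0.07, adjusted p = 0.0219). That call was lost without Veh replicate 3 (adjusted p = 0.0557) or HDACi replicate 4 (0.0766), without both libraries that stood apart (0.0972) and with no filter on low counts (0.0537). The other 3 comparisons for Med1 gave -0.13, -0.19 and -0.17 with adjusted p of 0.255, 0.1 and 0.0622, the last 2 called without hippocampus HDACi Context replicate 3 (0.0215) and striatum Veh Context replicate 1 (0.0495). In the tail, Med23, which binds activators such as Elk1, was lowered by a modest and closely repeated amount. It measured 51, 50.5, 51 and 50.4 CPM with vehicle and 35, 36.4, 35.3 and 38.6 with HDACi in hippocampus CFC, and 49.9, 56.5, 50.2 and 52.3 against 41.2, 39.7, 38.9 and 38.9 in striatum Context. The log2 fold changes were -0.50, -0.48, -0.49 and -0.41 (SE 0.05 to 0.07), and with the small spread between mice the adjusted p in hippocampus were 4.29e-06 and 5.72e-06, among the 3 smallest of the 83 genes there. Med30 was the other tail gene called, in striatum Context (-0.46, adjusted p = 0.0345). Med14, the backbone that ties the modules together, was not called: in striatum CFC it measured 77.5, 80.4, 101 and 81.1 CPM with vehicle and 86.7, 88.5, 91.1 and 84.8 with HDACi, the groups overlapped, and the 4 log2 fold changes lay between -0.05 and 0.05.

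Of the 7 kinase module genes 0 were called in either hippocampal comparison, and at the shares of all genes called a count of 0 among 7 is no result about the module. Cdk8 was lower and Med13 higher in striatum CFC, and Med12l was higher in striatum Context. Cdk8, the kinase, measured 33.2, 30.1, 29.4 and 31.9 CPM with vehicle and 26.6, 22.9, 26.1 and 24.7 with HDACi in striatum CFC, with no overlap (log2 fold change -0.33, SE 0.06, edgeR adjusted p = 9.32e-04). In striatum Context it measured 29.1, 29.9, 29.3 and 29.6 and 28.4, 26.2, 28.7 and 29.3, with overlapping groups (-0.08, adjusted p = 0.351). The difference between these effects of the drug was not called in the interaction test, although its unadjusted p was under 0.05. Cdk19, the alternative kinase, was not called in any drug comparison, from -0.09 to 0.11. Per kb, the ratio of Cdk19 to Cdk8 in striatum CFC was 7.15 with vehicle and 9.26 with HDACi, without overlap (exact permutation p = 0.0286, adjusted 0.0952 over 30 ratios). In hippocampus Context it was 4.66 and 5.15 with the same exact permutation p, but the groups nearly touched (vehicle at most 4.793, HDACi at least 4.794).

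Med13, which links the kinase to the rest of Mediator, measured 143, 126, 149.7 and 128 CPM with vehicle and 195, 148, 218 and 165 with HDACi in striatum CFC, where 1 HDACi library lay within the vehicle range (0.39, SE 0.11, adjusted p = 0.0169). The call was lost without Veh replicate 2 (adjusted p = 0.0712) or 4 (0.0511) or HDACi replicate 3 (0.0655). In striatum Context Med13 was 0.30 (adjusted p = 0.0597, and 0.0229 without HDACi replicate 1), and in hippocampus -0.04 and 0.00. Med12l, a paralogue of the kinase activator Med12, measured 41.9, 53.7, 55.1 and 53.9 CPM with vehicle and 63.1, 64.1, 58.8 and 64.4 with HDACi in striatum Context, with no overlap (0.27, SE 0.08, adjusted p = 0.0193). Vehicle replicate 1 lay below the other 3, and without it the value was 0.16 (adjusted p = 0.0925); the call was also lost without HDACi replicate 2 (0.0515) or 4 (0.0509) and under scaling to library size (0.129). Exons of Med12l share 17.3% of their bases with opposite-strand genes that include P2ry12, and the strand setting of the counting is not given in the sources used here. In striatum CFC the groups of Med12l were also separate, at 0.21, but the adjusted p was 0.0619, and 0.0298 without Veh replicate 3. Med12 (from -0.07 to 0.03), Med13l (at most 0.15, in striatum Context) and Ccnc, the cyclin partner (from -0.27 to -0.19, adjusted p of at least 0.058), were not called. Ccnc was called lower without Veh CFC replicate 2 (0.0274) or HDACi CFC replicate 3 (0.031) in hippocampus CFC, HDACi Context replicate 3 (0.0499) in hippocampus Context, or Veh Context replicate 2 (0.0455) in striatum Context.

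**Figure D3:**
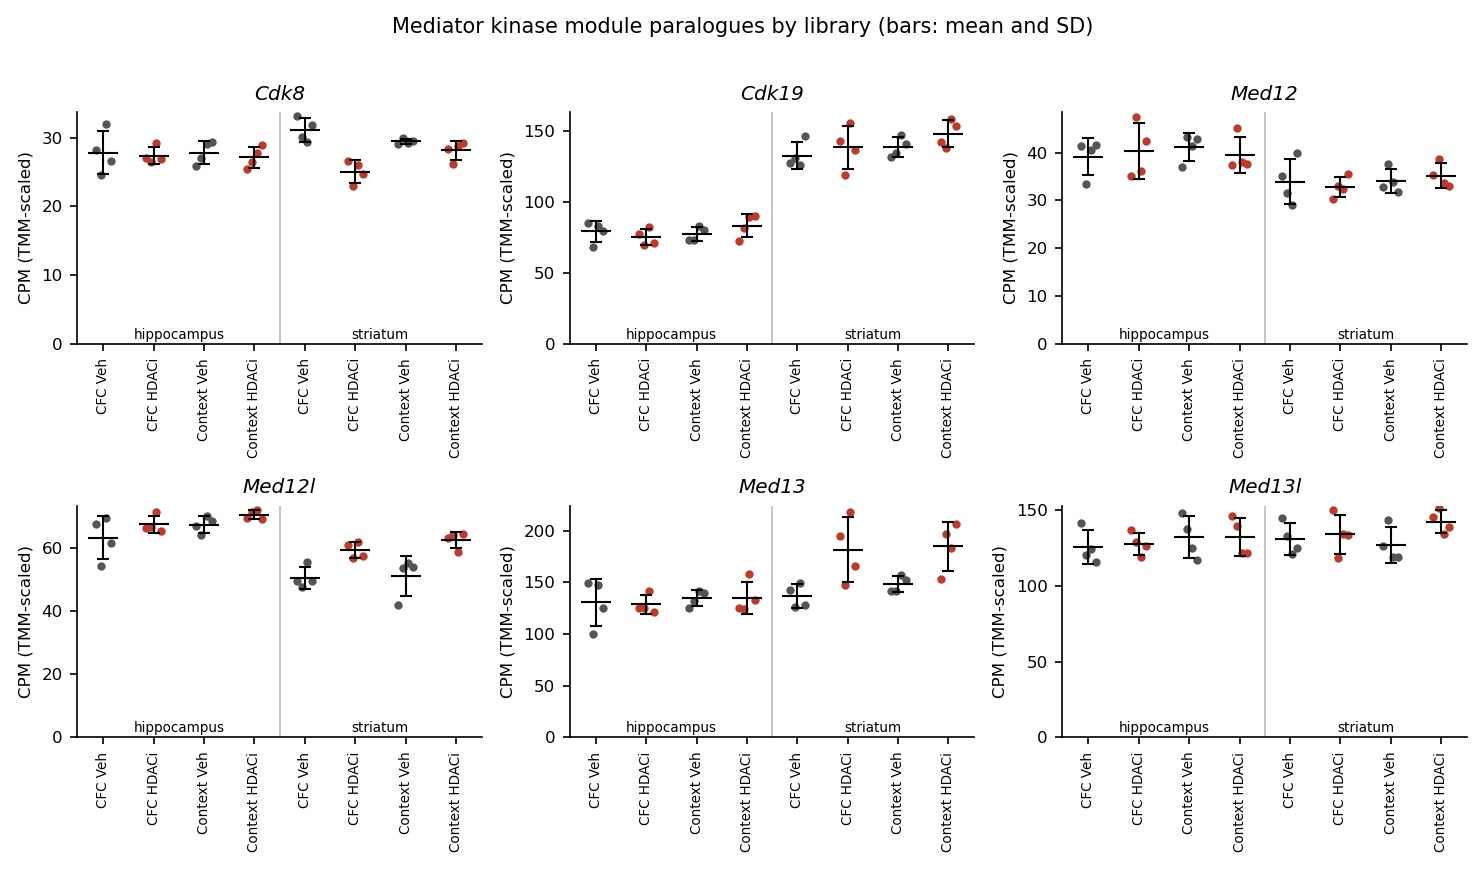
TMM-scaled CPM of 6 paralogous genes of the Mediator kinase module in each library (points, grey vehicle and red HDACi; bars give the mean and SD of 4 mice). Cdk8 is lower with HDACi in striatum CFC, Med13 in striatum CFC and Med12l in striatum Context are higher with HDACi, and Cdk19 is higher in striatum than in hippocampus in every group.

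Among the 12 Pol II subunits, 2, 2, 4 and 5 were lower with HDACi in hippocampus CFC, hippocampus Context, striatum CFC and striatum Context. The hippocampal counts are close to the shares of all genes called lower, 13.4% and 13.2%, and the striatal counts stand beside 14.6% and 14.5%. In each comparison 0 subunits were higher, against 7.42%, 6.55%, 9.57% and 10.3% of all genes. Polr2a encodes the largest subunit, whose tail is phosphorylated during transcription. In striatum it measured 82.1, 97.2, 91 and 97.9 CPM with vehicle and 75.3, 87.6, 63.6 and 72.6 with HDACi after CFC, and 78.6, 100.4, 88.4 and 88.1 against 74.9, 74.2, 71.5 and 71.2 after Context. The Context groups were separate and the CFC groups overlapped, with log2 fold changes of -0.30 (SE 0.09, edgeR adjusted p = 0.0237) and -0.32 (0.09, 0.0194). The CFC call was lost without Veh replicate 4 (0.0578) or HDACi replicate 3 (0.0635) or 4 (0.0512), and the Context call without Veh replicate 2 (0.0523) or HDACi replicate 3 (0.0588) or 4 (0.0614). In hippocampus Polr2a was -0.16 and -0.12, with adjusted p of 0.0566 and 0.164, and the CFC value was called without HDACi replicate 1 (0.017). Polr2h, a small subunit shared by all 3 nuclear RNA polymerases, was lowered in striatum: 9.8, 7.44, 11.3 and 9.16 against 5.87, 6.2, 5.36 and 6.49 CPM after CFC, and 10.0, 9.46, 8.93 and 10.5 against 5.71, 5.46, 6.05 and 5.9 after Context. Its striatal groups did not overlap, with log2 fold changes of -0.67 and -0.77 (SE 0.11 for each, adjusted p 3.73e-04 and 1.03e-04), while in hippocampus they overlapped, at -0.07 and -0.14. Of the second-largest subunit Polr2b and of Polr2d, which forms the stalk with Polr2g, chosen after their values were seen, Polr2b fell by 0.24 to 0.29 log2 and Polr2d by 0.62 to 0.71 in the 4 comparisons. Polr2g, the other stalk subunit, lay between -0.02 and 0.05 and was not called. Polr2j was the fifth subunit called in striatum Context (-0.33, adjusted p = 0.0182), and Polr2m was called in none.

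Both subunit genes of TFIIA, which stabilises TBP on DNA, were lower in all 4 comparisons, as were 8.71% of the genes tested in both regions. Gtf2a1, chosen after its values were seen, measured 45.6, 41.6, 50.7 and 44.8 CPM with vehicle and 32, 32, 34.8 and 32.3 with HDACi in hippocampus CFC, and its groups were separate in all 4 comparisons. Its log2 fold changes were -0.49, -0.53, -0.30 and -0.26, and those of Gtf2a2 were -0.48, -0.43, -0.38 and -0.25. Gtf2b, the single-subunit TFIIB that positions Pol II at the start site, measured 18.3, 17.8, 20.2 and 19.6 CPM with vehicle and 15.8, 13.7, 15.9 and 15.1 with HDACi in striatum Context, with no overlap (-0.35, SE 0.10, edgeR adjusted p = 0.0212). The call was lost without Veh replicate 3 (0.0583) or 4 (0.05) or HDACi replicate 2 (0.0653), and the other comparisons gave -0.15, -0.09 and -0.23, not called. In TFIIF, Gtf2f1 was called lower in striatum Context (-0.34, adjusted p = 0.0241) and Gtf2f2 was not called. In the TFIIH core, which unwinds promoter DNA together with helicases outside the naming rule, 3, 2, 4 and 3 of 5 genes were lower (13.4%, 13.2%, 14.6% and 14.5% of all genes). Gtf2h1 was called lower in all 4 comparisons (-0.27 to -0.34). Gtf2h5 was the TFIIH core gene called in none.

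TFIIE recruits TFIIH, and its 2 subunit genes moved in opposite directions in striatum CFC. Gtf2e1, the larger subunit, measured 15.1, 16.4, 16.5 and 14.9 CPM with vehicle and 21.1, 20.1, 20.6 and 19.6 with HDACi in striatum CFC, and 15.8, 13.7, 16.1 and 17 against 19.3, 21.8, 21.4 and 22.6 in striatum Context. Every HDACi library was above every vehicle library in both, a separation seen upwards in 10.1% and 14% of all genes. The log2 fold changes were 0.35 (SE 0.08, edgeR adjusted p = 0.00288) and 0.42 (0.08, 6.39e-04), with 0.13 and 0.21 in hippocampus, not called. Gtf2e2, the smaller subunit, was lower in hippocampus CFC (-0.40), hippocampus Context (-0.39) and striatum CFC (-0.39, adjusted p = 0.0191). Gtf2ird1, a TFII-I family factor of the genomic interval deleted in Williams syndrome, measured 32.9, 33.9, 30.2 and 28.9 CPM with vehicle and 42.2, 45, 40.4 and 42.9 with HDACi in striatum Context, with no overlap (0.42, SE 0.09, adjusted p = 0.00272). In striatum CFC it was 0.28 (adjusted p = 0.0317), a call lost without Veh replicate 3 (0.0821) or 4 (0.0662) or HDACi replicate 1 (0.107) or 2 (0.0804), without both libraries that stood apart (0.173), and under scaling to library size (0.143). In hippocampus HDACi CFC, replicates 2 and 4, the libraries high in choroid plexus markers, were the 2 highest at 20.5 and 21 CPM, against 14 and 13.2 in replicates 1 and 3; the comparison with vehicle was not called (0.36, adjusted p = 0.0903), but was called higher without Veh replicate 2 (0.0387) or HDACi replicate 1 (0.0437) or 3 (0.0254), which raises that comparison's count of higher genes from 0 to 1. Gtf2i, the founding TFII-I gene, was not called, with log2 fold changes from 0.03 to 0.14.

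The drug effect was then compared between regions in 1 fit of all 32 libraries, by testing the difference of the 2 log2 fold changes. After Context 3 of the 83 genes were called, against 0.62% of 19198 genes, and after CFC 0 were, against 0.266%. In the CFC test 8 of the 83 stood at an unadjusted p under 0.05 by edgeR (7.84% of all genes). DESeq2's Wald test, GC and length offsets and the replicate block each called 2 after adjustment, and the shares of all genes under these settings are not given here. Taf4 differed by -0.75 (hippocampus minus striatum, SE 0.15, edgeR adjusted p = 0.0103), Polr2h by 0.62 (0.15, 0.0443) and Med10 by 0.52 (0.12, 0.0475). After CFC the same 3 genes had differences of -0.57, 0.60 and 0.46, with adjusted p of 0.107, 0.0779 and 0.124. The 2 behaviours used separate mice. Med10, a middle-module subunit, measured 22.7, 21.5, 19.6 and 19 CPM with vehicle and 22.7, 22.7, 22.6 and 23.1 with HDACi in hippocampus Context, and 16.2, 15.4, 13.4 and 15.6 against 10.7, 12, 11.6 and 12.2 in striatum Context. The hippocampal groups overlapped and the striatal ones did not (-0.40, adjusted p = 0.00773), and in striatum CFC Med10 was -0.32 (adjusted p = 0.028), a call lost without Veh replicate 1 or 3 or HDACi replicate 1 or 3 (0.0655 to 0.0861) or without both libraries that stood apart (0.0674). Exons of Med10 share 92.8% of their bases with a gene on the opposite strand (Gm26819), so its counts depend on how strand was treated. These region differences were near the threshold, and the calls were lost for Taf4 with GC and length offsets (0.124) and for Polr2h and Med10 with no filter on low counts (0.0617 and 0.0589). Taf4 lost its call without any of 7 of the 16 libraries (each hippocampus HDACi Context library, striatum Veh 4, HDACi 2 and HDACi 4), with adjusted p of 0.0583 to 0.103. Polr2h lost it without any of 6 (each hippocampus Veh Context library, striatum Veh 1 and 2; 0.0632 to 0.0898), and Med10 without any of 5 (hippocampus Veh 2, 3 and 4, striatum Veh 1 and 2; 0.0688 to 0.118). The count of called genes after Context was 1 without hippocampus Veh Context replicate 2, 3 or 4 or striatum Veh Context replicate 1 or 2, and the CFC count was 2 without hippocampus HDACi replicate 3 or striatum HDACi replicate 4 and 1 without hippocampus HDACi replicate 1 or 2, striatum Veh replicate 2 or striatum HDACi replicate 2.

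Genes of neighbouring steps of transcription, from lists outside the naming rule, were counted in the same comparisons, in which 13.4%, 13.2%, 14.6% and 14.5% of all genes were lower and 7.42%, 6.55%, 9.57% and 10.3% higher. Of the 5 other TFIIH genes, Ercc3, a helicase that opens the promoter, was lower in all 4 comparisons (-0.35, -0.38, -0.44 and -0.50), and the list gave 2, 1, 4 and 3 lower and 0 higher. Cdk7, the TFIIH kinase that phosphorylates the Pol II tail, was lower in striatum (-0.22 and -0.30, edgeR adjusted p 0.0449 and 0.00802), and its cyclin Ccnh was called in none. Of 33 pausing and elongation genes 10, 9, 7 and 11 were lower and 1, 1, 2 and 1 higher. Among them, chosen after their values were seen, were Nelfa of the pausing factor NELF (-0.74, -0.77, -0.73 and -0.74) and Cdk12, a kinase of elongating Pol II (-0.46, -0.51, -0.53 and -0.62). Aff4, a scaffold of the super elongation complex, was higher in striatum (0.25 and 0.23). Of 14 Integrator genes 6, 5, 7 and 7 were lower and 0 higher, led by Ints12 (-1.44, -1.35, -1.17 and -1.20), chosen likewise. Of 14 SAGA partners 5, 4, 4 and 4 were lower and 0 higher, and of 16 Pol I and Pol III subunits 7, 6, 9 and 8 were lower and 0, 0, 0 and 1 higher. Of 10 phosphatases and readers of the Pol II tail 3 were lower in each comparison and 1, 1, 1 and 0 higher, the lower ones including Ctdp1, the tail phosphatase (-0.74, -0.74, -1.01 and -1.34). TBP partners and relatives gave 0, 0, 1 and 1 lower and 0 higher of 4. The median log2 fold change of each of these 7 lists was below 0 in all 4 comparisons, down to -0.35, and no list was tested as a set.

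A further question is whether conditioning itself changed these genes, under vehicle or under HDACi. CFC was compared with Context in each region under vehicle and under HDACi, and the drug effect after CFC with that after Context, 6 comparisons that reuse the libraries of the drug comparisons. In all 6, edgeR called 0 of the 83 genes and 0% of all genes, and DESeq2's Wald test called 0 of the 83 as well. At an unadjusted p under 0.05 stood 0 and 3 of the 83 genes in hippocampus under vehicle and HDACi (1.03% and 4.24% of all genes), and 0 and 4 in striatum (1.18% and 5.41%). For the interaction these counts were 0 in hippocampus and 2 in striatum, Cdk8 and Gtf2h3 (2.14% and 2.08% of all genes). The 3 in hippocampus under HDACi were Gtf2ird1, Polr2a and Gtf2h3, and the 4 in striatum were Gtf2h3, Cdk8, Med8 and Gtf2ird2. The shares of all genes under vehicle and for the interaction lie below what a threshold of 0.05 gives when nothing differs. Those tests may therefore have been strict and missed changes. The largest positive value was 0.45 log2 for Gtf2ird1 in hippocampus under HDACi, where the libraries with high choroid plexus markers were its highest, and under vehicle the log2 fold changes ran from -0.12 to 0.24 in hippocampus and from -0.11 to 0.27 in striatum. For drug effects the median SE of a log2 fold change over the 83 genes was 0.09 to 0.10. No conditioning or interaction comparison was simulated. On counts simulated for the drug comparison in hippocampus CFC, a change of 0.32 on the log2 scale was called in 13.4% of the genes given one, a 1.5-fold change in 58.2% and a 2-fold change in 93.9%. Only 67, 67 and 66 of 18093 genes were given these changes. Far more genes were called in the real comparison (13.4% of all genes lower and 7.42% higher), where the adjustment is less strict, so the simulated shares need not hold there.

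Between regions, under vehicle and Context, 15 of the 83 genes were higher in hippocampus and 7 lower, against 24.2% and 19.9% of 19198 genes, by edgeR on all 32 libraries. In both directions together 22 of 83 were called, against 44.1% of all genes. The number lower in hippocampus was 14 with GC and length offsets, 12 with the replicate number as a block and 18 with both, so the count of these genes depends on the settings. The shares of all genes under those settings are not given here, so those counts cannot be set against them. Whether equal replicate numbers in the 2 regions mark 1 mouse is not known, and the libraries were tested as separate samples. The gene most biased to striatum was Gtf2ird1, at 13.2, 13.5, 11.9 and 11 CPM in hippocampus and 32.9, 33.9, 30.2 and 28.9 in striatum, with no overlap (-1.34, hippocampus minus striatum, SE 0.12, adjusted p = 2.94e-10). Cdk19 followed, at 72.7, 73, 82.7 and 80.1 against 131, 134, 147 and 141 CPM, also without overlap (-0.84, SE 0.08, adjusted p = 1.32e-09). Cdk8 did not follow its paralogue, at 25.8, 27.1, 29 and 29.3 against 29.1, 29.9, 29.3 and 29.6 CPM, and was not called. The ratio of Cdk19 to Cdk8 per kb was 4.66 in hippocampus and 7.90 in striatum, with no overlap (two-sided exact permutation p = 0.0286, adjusted 0.0952 over 30 ratios). The ratio of Taf4 to Taf4b was 2.98 and 4.55, also without overlap (exact permutation p = 0.0286, adjusted 0.0952), with Taf4 lower in hippocampus (-0.46, SE 0.10, adjusted p = 5.38e-04, and 0.0644 with GC and length offsets). Among the called genes Taf10 (-0.28), Taf11 (-0.25), both histone-fold TAFs, and Med4 (-0.25) came next, while Taf1c (-0.48), Med16 (-0.32) and Taf8 (-0.29) had larger differences with wider errors and were not called. The value of Taf9b (-0.22) was called as well but not without hippocampus replicate 1 or 2 or striatum replicate 2 or 3 (0.0541 to 0.12). On the hippocampal side Polr2a led, at 149.6, 149.9, 141 and 137 CPM against 78.6, 100.4, 88.4 and 88.1 in striatum, with no overlap (0.70, SE 0.08, adjusted p = 1.08e-08). It was followed by Gtf2ird2 (0.63), a TFII-I paralogue opposite in sign to Gtf2ird1, then Gtf2h5 (0.55), Gtf2f2 (0.47) and Med10 (0.45). Gtf2b (0.42), Med12l (0.40) and Med14 (0.32) were also higher in hippocampus, as were Med12 (0.28, adjusted p = 0.0246) and Gtf2i (0.15, 0.0174). The Med12 call was lost without hippocampus replicate 2 or 4 or striatum replicate 1 or 4 (0.0621 to 0.134), and that of Gtf2i without hippocampus replicate 1 or 2 or striatum replicate 3 or 4 (0.0572 to 0.247), and with no filter on low counts they were at 0.0885 and 0.236. Without striatum Veh Context replicate 4, which held the highest neocortical marker sum of its group (75.6 CPM against 25.8 to 47.7), the number lower in hippocampus was 11 in place of 7.

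**Figure D4:**
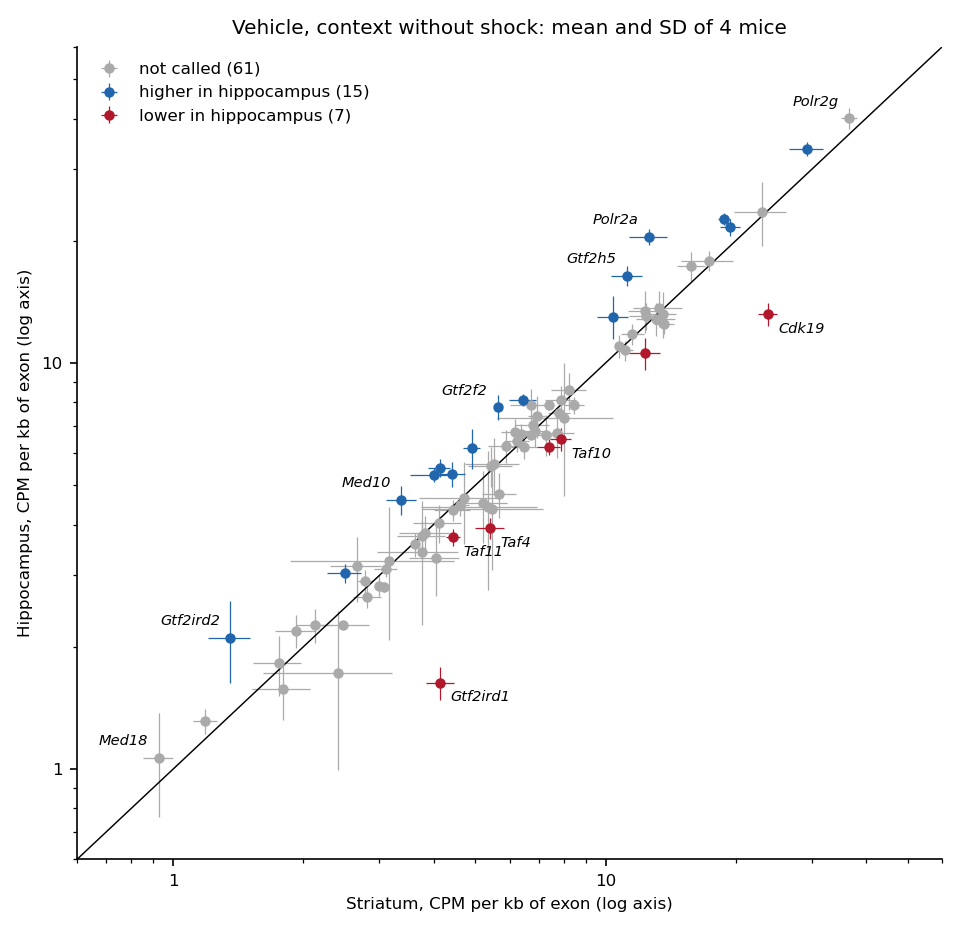
Mean CPM per kb of exon of each of the 83 genes in striatum (horizontal, log axis) and hippocampus (vertical, log axis) under vehicle and Context, with the SD of 4 mice as error bars and a diagonal of equal levels. Most genes lie near the diagonal, with Cdk19 and Gtf2ird1 furthest below it and Polr2a and Gtf2ird2 furthest above.

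Per kb of exon, the 83 genes spanned a 37.6-fold range in hippocampus and 39.6-fold in striatum under vehicle and Context, with medians of 6.22 and 5.88 CPM per kb. The length used joins all annotated exons of a gene, for example 13576 bases for Tbp, whether or not the tissue used them. Levels and ratios between genes therefore depend partly on the annotation, while the change of a gene between groups does not. Polr2g was the highest in both (40.1 ± 2.35 and 36.7 ± 1.57 CPM per kb, mean ± SD, n = 4), followed by Polr2m (33.6 ± 1.31 and 29.2 ± 2.58). Cdk19 was at rank 3 in striatum at 23.7 ± 1.22 CPM per kb, a level that overlapped that of Gtf2f1 below it (23 ± 3.18), while in hippocampus it stood at 13.2 ± 0.861. Med18 was the lowest in both (1.07 ± 0.306 and 0.926 ± 0.0741), next to Taf4b (1.31 ± 0.0941 and 1.19 ± 0.0777), and the library values of the 2 overlapped in hippocampus but not in striatum. Polr2a, whose product is present once in each polymerase, stood at 20.4 ± 0.911 and 12.6 ± 1.26 CPM per kb, about the level of Gtf2i in hippocampus (21.6 ± 1.08) and below it in striatum (19.4 ± 0.993). By this measure subunits of 1 complex differed widely in level.

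Several properties not used to choose the genes were compared between those lowered in all 4 drug comparisons and the rest. Median exon GC content was 47.4% in the 23 genes lower in all 4 and 50.2% in the 32 called in none, against 49.7% in 13408 protein-coding genes with a mean of at least 1 CPM. A protein-coding gene starting within 1 kb on the opposite strand, a divergent partner, was present for 5 of the 23 (21.7%), for 3 of the 32 (9.38%), for 15 of all 83 (18.1%) and for 9.48% of the expressed genes. Over the 83 genes, the mean log2 fold change over the 4 drug comparisons had a Pearson r of 0.417 with log2 CPM per kb, 0.306 with log2 exon length and -0.0847 with GC content, given as descriptions over genes that share the same libraries. Exon overlap with opposite-strand genes was also high for Taf10 (45.9%), Polr2i (26.8%), Taf6 (26.5%) and Med31 (26.3%), and their values carry the uncertainty named for Med10.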

How the data were processed

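The deposited file holds read counts per gene in 32 libraries, which the authors made with bcl2fastq 2.20.0, STAR 2.6 and the mm10 build, per the submitters' processing notes. They also name DESeq2. How reads were assigned to genes, and whether by strand, is not given in the sources used here. Libraries were polyadenylated, stranded RNA, per the labels' protocols. Of 54146 identifiers, 54079 matched GENCODE M21, and 67 did not (0.0264% of a library's counts or less).

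Counts were fitted with edgeR 4.0.16 (R 4.3.3; TMM, filterByExpr, quasi-likelihood F test), with the 16 libraries of a region for drug and conditioning and all 32 for regions. Adjustment was by Benjamini-Hochberg over all genes, with a threshold of 0.05. Each library is 1 region of 1 mouse, so p-values measure the spread between mice. Replicates of a group differed beyond sampling noise (chi-square per degree of freedom 5.77 to 67.7). The fit was tested on simulated data, and for striatum CFC it recovered 65.7% of 1.5-fold and 83.3% of 2-fold changes (given to 67 and 66 of 18089 genes, far fewer than were called in the data).

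Named are the kinase module, Med1, Med14, Tbp, Taf1, Polr2a, Gtf2b, Gtf2i, paralogue pairs, the called genes with the 6 smallest adjusted p in each direction of each drug comparison, the 5 largest region differences in each direction, and every gene whose drug effect differed between regions. Any other gene named was chosen after its values were seen. The genes and lists were chosen with earlier results of these data known. Alternatives were DESeq2 1.42.0 (size factors, Wald test), library size scaling, GC and length offsets (mgcv 1.9.3), no filter, a replicate block, and leaving out libraries. A block with GC and length offsets was added after seeing the data.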

Additional observations from a re-analysis of the deposited data

Results flagged for a closer look

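Of 288 combinations of a named gene and a group of 4 libraries, 13 (4.51%) held 1 library far from the other 3, and chance alone gives about 1 in 20 such groups. All values are TMM-scaled CPM. In hippocampus Veh Context, replicate 1 was low for Gtf2b at 23.4 (the others 25.9 to 26.1) and high for Med11 at 4.44 (3.70 to 3.77). In hippocampus HDACi Context, Med1 was high in replicate 3 at 68.5 (57.4 to 58.1) and Med12 in replicate 2 at 45.1 (37.4 to 38.1). In hippocampus Veh CFC, Med12 was low in replicate 2 at 33.4 (40.5 to 41.5). In hippocampus HDACi CFC, replicate 3 was high for Taf1 at 120.5 (106 to 109) and for Taf12 at 11.4 (9.29 to 9.44). In striatum Veh Context, Med12l was low in replicate 1 at 41.9 (53.7 to 55.1). Its call with HDACi was lost without that library, as it was without HDACi replicate 2 or 4. In striatum HDACi Context, Med11 was low in replicate 4 at 1.01 (1.47 to 1.56). In striatum Veh CFC, Med14 was high in replicate 3 at 101 (77.5 to 81.1) and Taf6 in replicate 1 at 25.7 (23.8 to 24.1). In striatum HDACi CFC, Med18 was low in replicate 2 at 0.529 (0.837 to 0.890) and Taf12 in replicate 1 at 9.26 (9.76 to 9.81).

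The drug effect after Context was called different between hippocampus and striatum, by edgeR's test of the difference itself, for Taf4 (-0.75), Polr2h (0.62) and Med10 (0.52). Each call was lost without any of several single libraries, and none was made after CFC or within either replicate set. The Med10 counts also depend on how strand was treated.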

How the results depend on the processing

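Counts here are of the 83 genes, in the order hippocampus CFC, hippocampus Context, striatum CFC and striatum Context. They stand without the shares of all genes called under the same settings. Genes lower with HDACi numbered 31, 28, 40 and 37 as reported and stayed within 1.5 times of that under DESeq2 size factors, library size scaling, GC and length offsets, DESeq2's Wald test, no filter and the replicate block. They numbered 16, 16, 13 and 16 in replicates 1 and 2 alone, 14, 15, 26 and 19 in replicates 3 and 4 alone, and 19 in hippocampus CFC without the libraries that stood apart. Leaving out 1 library at a time gave 22 to 31, 22 to 28, 33 to 41 and 27 to 37. Genes higher with HDACi, reported as 0, 0, 3 and 3, numbered 5 and 6 in hippocampus with GC and length offsets, and 1 in hippocampus CFC and 5 in striatum CFC by DESeq2's Wald test. In replicates 1 and 2 they numbered 1 in hippocampus Context, 0 in striatum CFC and 1 in striatum Context, in replicates 3 and 4 they numbered 0 and 1 in striatum, and with 1 library left out 0 to 1, 0 to 0, 1 to 3 and 2 to 4. Between regions, genes higher in hippocampus (15) numbered 9 and 8 within the replicate sets and 12 to 16 with 1 library left out. Genes lower in hippocampus (7) numbered 14 with GC and length offsets and 6 to 11 with 1 library left out. The region difference of the drug effect, reported as 0 genes after CFC and 3 after Context, gave 2 after CFC with GC and length offsets and 2 by DESeq2's Wald test. After Context it gave 1 with no filter and 0 in either replicate set, and with 1 library left out the ranges were 0 to 2 and 1 to 3. Conditioning and interaction counts stayed at 0 to 0 with 1 library left out. Genes lower in all 4 comparisons, 23 as reported, numbered 35 under library size scaling. Of the 23, 18 to 23 kept that under the other scalings, tests and filters, 16 without the libraries that stood apart, and 7 and 10 within the replicate sets. Uncalled values changed sign for Cdk19 in hippocampus CFC without the libraries that stood apart (0.0029), Gtf2i there under library size scaling (-0.0062) and under the block with GC and length offsets (-0.0001), Gtf2b in hippocampus Context with GC and length offsets (0.0366) and with the block as well (0.0375), and Gtf2f2 in striatum CFC in replicates 1 and 2 (0.0697). The cause of these changes was not tested. Fits within the replicate sets or with libraries left out also had fewer samples.

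Equal replicate numbers did not pair every sample by its deviations. In hippocampus libraries of equal number correlated at 0.121 to 0.680 for numbers 1 to 3 and at -0.0757 to 0.498 for number 4, and in striatum the lowest r was -0.255, and 7 of 16 libraries in each region best matched their own number. Across regions the 16 pairs of equal treatment and number had r of 0.0417 to 0.735. Pairs of unequal number, within or across regions, were not set beside these values, nor was the number of best matches expected without any pairing. The values therefore cannot tell whether equal numbers share a mouse or another source of variation. With the replicate block, lower genes numbered 39, 36, 46 and 43, higher genes 2 and 2 in hippocampus, genes lower in hippocampus between regions 12, and region differences after CFC 2. With the block and GC and length offsets together, higher genes in hippocampus numbered 6 and 6, genes lower in hippocampus between regions 18, and region differences 3 after CFC and 5 after Context. At the depth of these libraries all 83 genes were counted in every library. Between regions the widest SE was 0.29, for Taf1c, itself a gene of low level (rank 79 of 83 per kb in hippocampus). The SE was 0.27 for Polr2e and Med16, which ranked 31 and 56, and 0.17 for Med18, the lowest gene.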
